A study of Mus musculus with 12 samples.

Results

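Cardiomyocytes isolated from the hearts of wild-type C57BL6 mice were compared 16 weeks after removal of most of the kidney mass (5/6 nephrectomy, NX) with those of sham-operated mice, where every mouse had also received JV101. The comparison uses 3 NX JV101 and 3 sham JV101 libraries, 6 of the 12 in the series, and was described across all genes. The other 6 libraries come from NX and sham mice that received saline. The series title presents the work as gene therapy to recap telomeres in cardio-renal disease, while the labels do not describe the makeup, dose or timing of JV101, the age or sex of the mice, or whether replicates were separate mice. The p-values therefore measure only the spread between these samples, which may be technical. Because both groups carry JV101, the contrast shows what differs with nephrectomy in treated mice, and says nothing by itself about JV101.

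Chronic loss of kidney function burdens the heart through fluid retention, raised blood pressure, retained solutes, disturbed phosphate handling and low-grade inflammation. Heart muscle cells under such load are known to return to fetal isoforms and natriuretic peptides, to alter fuel use, and to sit among fibroblasts that lay down matrix. Telomeres, the repeats at chromosome ends, are covered by the shelterin proteins, and exposed ends can start DNA damage signals and, when DNA reaches the cytosol, interferon responses.

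The 6 libraries held 28.0 to 33.8 M counts. Protein genes of mitochondrial DNA, 13 in number, drew 48.6 ± 8.60% of the counts in sham JV101 and 44.1 ± 7.73% in NX JV101 (SD, n = 3), and 16548 to 18342 genes were detected. None of 4 library measures passed an exact permutation test between groups (2-sided, p = 0.2 to 0.5, adjusted p = 0.5), which cannot go below 0.1 with 3 against 3. The libraries did not separate by surgery. On log2 CPM (CPM being a gene's counts relative to the TMM-scaled library total, the unit of all levels below) pairs from different groups correlated at 0.913 to 0.980 and pairs of the same group at 0.913 to 0.974. The closest pair was sham JV101 replicate 1 and NX JV101 replicate 2, and sham JV101 replicate 3 stood apart on a first principal component that held 54.7% of the variance (85.8, against −50.4 to 17.4 in the others).

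The same libraries lay at the ends of the range for cells other than myocytes. Markers of the labelled cell type were present in every library (12 genes, 38137, 62208 and 67408 summed CPM in the sham JV101 libraries, in replicate order here and throughout, against 54701, 39079 and 49573 in NX JV101). Fibroblast markers summed to 3271, 1486 and 658 CPM in sham JV101 and 1545, 3431 and 1834 in NX JV101. Endothelial markers ran alike at 3674, 2049 and 693 and 1913, 3693 and 2479 CPM, and so did macrophage and monocyte markers at 992, 506 and 215 and 404, 1066 and 536 CPM. Sham JV101 replicate 1 and NX JV101 replicate 2 were thus rich in non-myocyte transcripts and sham JV101 replicate 3 poor in them, and the groups overlapped in all 3 sums. In bulk RNA, fewer cells of a type and less RNA per cell cannot be told apart.

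**Figure D1:**
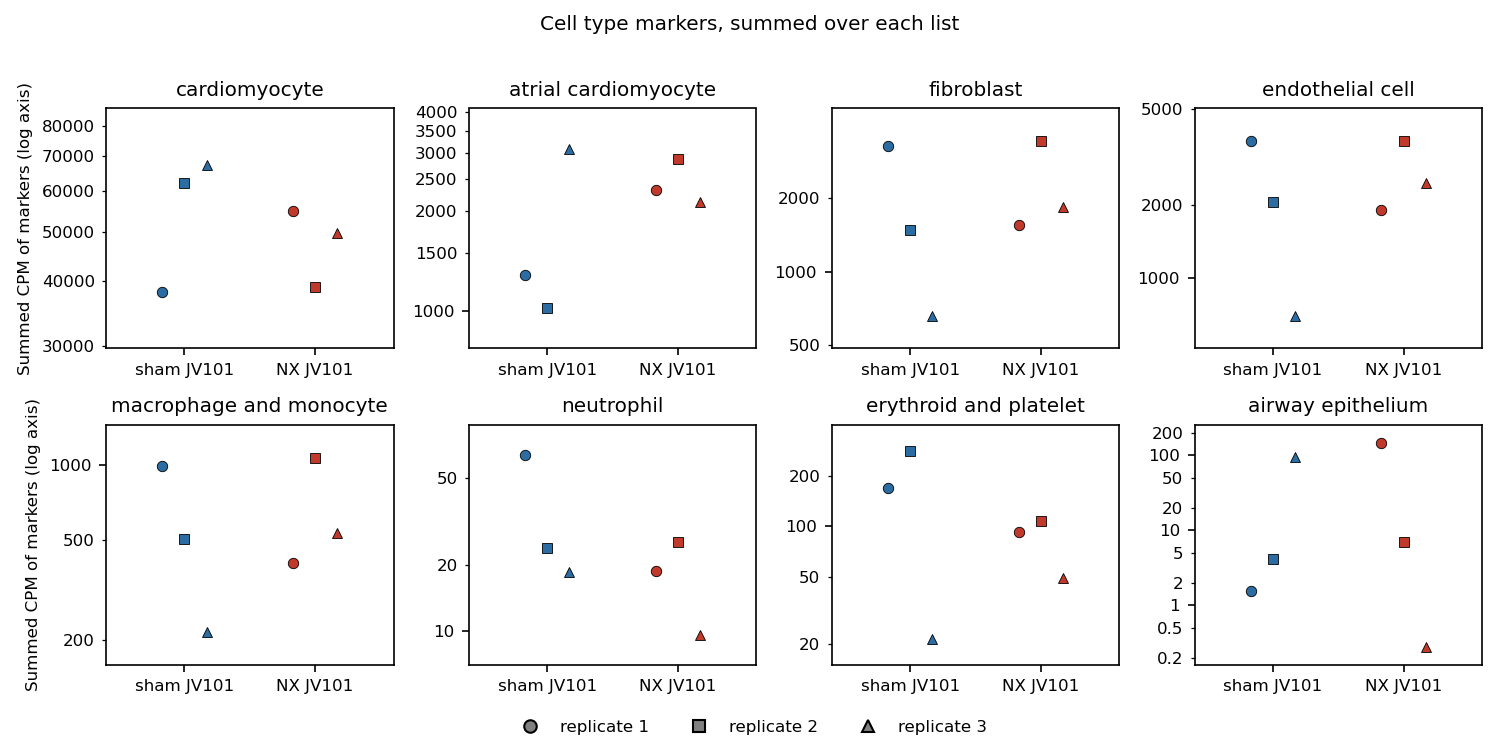
Summed CPM of the markers of 8 cell types (log axis) in the 3 sham JV101 and 3 NX JV101 libraries, 1 symbol per replicate. Fibroblast, endothelial and macrophage markers are lowest in sham JV101 replicate 3 and highest in sham JV101 replicate 1 and NX JV101 replicate 2, and no panel separates the groups.

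No gene passed between NX JV101 and sham JV101. Of 14412 genes tested with edgeR's quasi-likelihood test, 0 (0%) had an adjusted p under 0.05, and the smallest was 0.999. Before adjustment 111 genes were higher (0.770%) and 188 lower (1.30%) after nephrectomy at p under 0.05. Together these are a smaller share than the 0.05 of all genes that this threshold gives on average where no gene differs. DESeq2 called 0, with 423 genes at an unadjusted p under 0.05. All 3 NX libraries lay above all 3 sham libraries for 387 genes (2.69%) and below them for 349 (2.42%). Log2 fold changes were above 0 for 50.6% of genes and below 0 for 49.4%, with a median of 0.00. For the 6876 genes that reached 10 CPM, standard errors had a median of 0.188, and a difference of 2 such errors is 1.30-fold. The adjusted test needs larger differences. In simulated counts it called 20 of 98 genes changed by a log2 of 1 and 72 of 102 changed by a log2 of 2, and also 9 unchanged genes. Those counts were drawn for each gene on its own, without the differences between libraries that many genes share here. The simulated shares therefore need not hold for these libraries. As no gene passed, the values that follow are descriptions of these libraries, and none is a called change.

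Among the genes higher after nephrectomy the smallest p was that of *Rbm3*, a cold-inducible RNA-binding protein. It stood at 22.1, 24.5 and 23.9 CPM in sham JV101 and 38.96, 31.4 and 44.9 in NX JV101, so that the groups did not overlap (log2 fold change, NX minus sham, as for all values in parentheses below, 0.71, SE 0.18, edgeR unadjusted p = 0.00178). It ranged from 0.58 to 0.84 when any 1 of the 6 libraries was left out. In the saline mice, which share no library with this comparison, *Rbm3* was at 21.5, 18.2 and 27.3 CPM in sham and 34.5, 28 and 29.9 in NX, again without overlap (0.46, SE 0.18).

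*Npr3*, the receptor that clears natriuretic peptides, was at 21.7, 15.1 and 13.6 CPM in sham JV101 and 20.6, 31.5 and 32.7 in NX JV101. The groups overlapped through sham JV101 replicate 1 and NX JV101 replicate 1 (0.75, SE 0.23). *Npy1r*, a receptor for the sympathetic co-transmitter neuropeptide Y, was low throughout, at 0.5197, 0.452 and 0.479 CPM in sham JV101 and 1.02, 1.67 and 1.27 in NX JV101, with no overlap (1.44, SE 0.43). In saline mice it lay the other way, at 0.819, 0.693 and 1.61 CPM in sham and 0.475, 0.374 and 0.758 in NX, and the interaction of surgery and injection was 2.44 (SE 0.61), which did not pass after adjustment. *Aff3*, a nuclear regulator of transcription, was at 1.39, 1.27 and 1.02 CPM in sham JV101 and 1.91, 2.87 and 2.89 in NX JV101 (1.06, SE 0.32), without overlap. *Lix1l* (0.43, SE 0.14), *Nudt16*, a hydrolase that removes RNA caps (0.75, SE 0.25), and *Cmc1*, which takes part in cytochrome oxidase assembly (0.54, SE 0.18), were also without overlap. *Srp54b* was at 0.246, 0.497 and 0.150 CPM in sham JV101 and 0.272, 3.49 and 3.09 in NX JV101 (2.98, SE 0.84). The groups overlapped, with NX JV101 replicate 1 within the sham range. *Srp54b* has near-identical copies, and its value is uncertain because reads could be split among them.

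On the lower side stood *Col11a2*, a chain of type XI collagen, at 1.72, 2.76 and 2.16 CPM in sham JV101 and 1.29, 0.542 and 0.474 in NX JV101 (−1.53, SE 0.42). *Klhl31*, a kelch-like protein of striated muscle, was at 30.3, 53.01 and 58.2 CPM in sham JV101 and 28.4, 26.8 and 29.1 in NX JV101 (−0.75, SE 0.22). Its 3 NX values were close together while the sham values spread widely, with the lowest sham library just above NX.

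*Tia1*, an RNA-binding protein of stress granules, was at 14.4, 17.2 and 17.2 CPM in sham JV101 and 13.7, 8.95 and 10.05 in NX JV101 (−0.58, SE 0.18). *Ints13*, a subunit of the Integrator complex that processes nascent RNA, was at 13.6, 15.4 and 15 CPM in sham JV101 and 9.67, 10.5 and 11.3 in NX JV101 (−0.48, SE 0.15). *Aasdh* (−0.81, SE 0.22), *Atpsckmt*, which methylates a subunit of ATP synthase (−0.58, SE 0.18), *Jrk* (−1.05, SE 0.34), *Tmem80* (−0.57, SE 0.19) and the predicted genes *Gm30735* (−1.40, SE 0.40), *Gm26944* (−1.40, SE 0.41) and *Gm42226* (−0.54, SE 0.17) were also among the 12 lower genes of smallest p at a mean of 1 CPM or more in either group. None of these lower genes named here overlapped between groups.

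**Figure D2:**
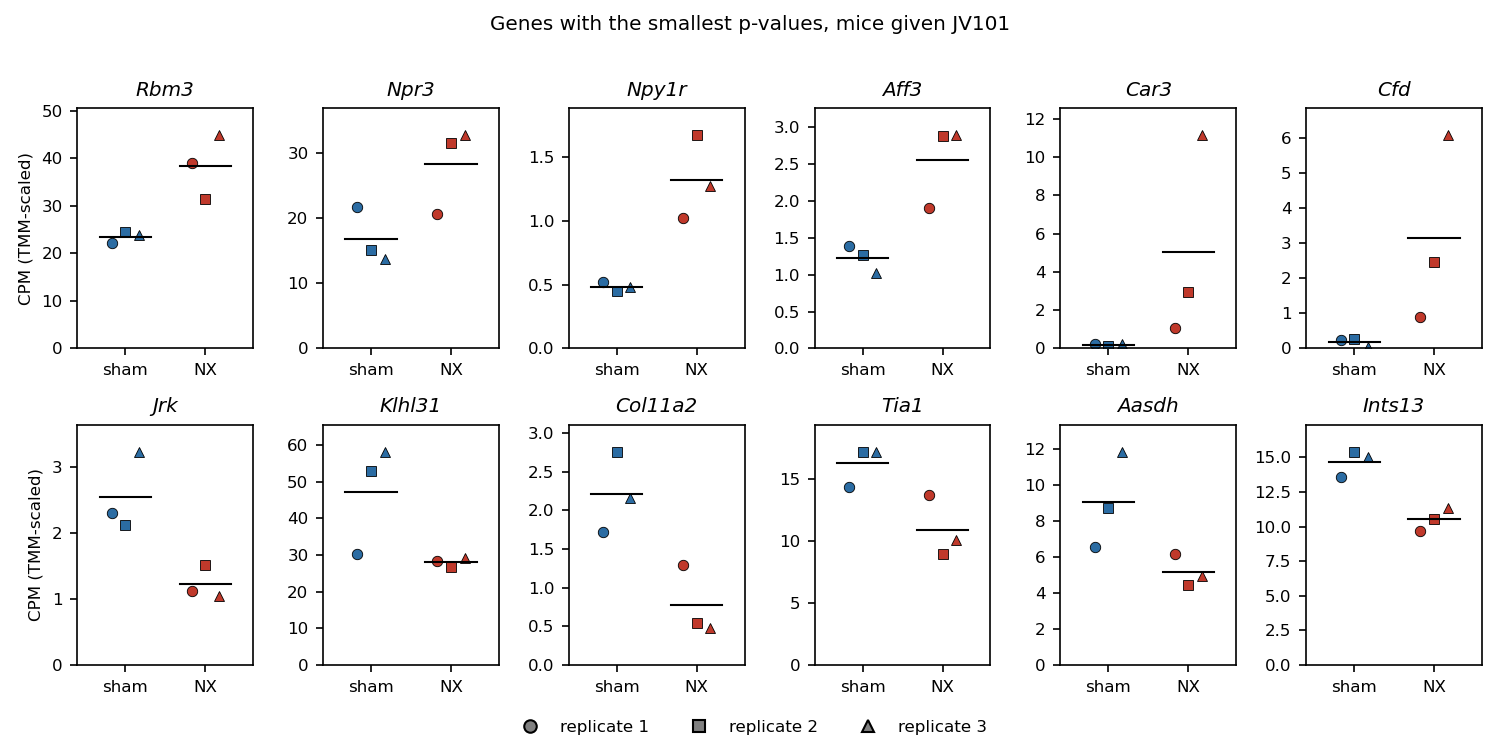
CPM of 12 genes from those with the smallest p-values at a mean of 1 CPM or more in either group, 6 higher and 6 lower after nephrectomy, in the 3 sham and 3 NX libraries of mice given JV101 (symbols: replicates; line: mean; axes start at 0). *Rbm3* lies at 22.1 to 24.5 CPM in sham and 31.4 to 44.9 in NX, and of the 12 genes drawn only *Npr3* overlaps. *Srp54b*, *Afp* and *Apob*, also among the higher genes of smallest p, overlap and are not drawn. Choosing genes for small p in these same libraries favours groups that do not overlap.

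Interferon-induced genes leaned upward as a group. Interferons bind receptors that act through JAK kinases and STAT proteins; type I interferon chiefly reaches a promoter element of repeated GAAA (the interferon-stimulated response element, bound by a complex that holds IRF9), whereas interferon-gamma acts through STAT pairs at a palindromic element and through IRF1. The 250 bases before the start are shown for 4 genes picked as known targets: *Ifit1* and *Isg15*, classic type I targets, and the GTPases *Igtp* and *Irgm2*, classic interferon-gamma targets. The sequences are from RefSeq (GRCm38.p6, 5′ to 3′ on each gene's strand; the counts were made on GRCm39), and capitals mark GAAANNGAAA or TTCNNNGAA, searched on both strands with overlaps merged.
*Ifit1*, chr19:34640639-34640888, plus strand: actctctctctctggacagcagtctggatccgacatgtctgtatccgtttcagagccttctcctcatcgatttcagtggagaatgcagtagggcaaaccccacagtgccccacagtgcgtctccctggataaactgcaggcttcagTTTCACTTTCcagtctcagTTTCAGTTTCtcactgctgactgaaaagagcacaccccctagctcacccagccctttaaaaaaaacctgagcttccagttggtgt
*Isg15*, chr4:156200819-156201068, minus strand: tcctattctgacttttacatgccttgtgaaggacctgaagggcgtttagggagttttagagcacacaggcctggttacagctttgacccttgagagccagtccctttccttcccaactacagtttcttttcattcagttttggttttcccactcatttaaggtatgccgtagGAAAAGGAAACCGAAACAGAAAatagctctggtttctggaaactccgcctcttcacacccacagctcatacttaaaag
*Igtp*, chr11:58199306-58199555, plus strand: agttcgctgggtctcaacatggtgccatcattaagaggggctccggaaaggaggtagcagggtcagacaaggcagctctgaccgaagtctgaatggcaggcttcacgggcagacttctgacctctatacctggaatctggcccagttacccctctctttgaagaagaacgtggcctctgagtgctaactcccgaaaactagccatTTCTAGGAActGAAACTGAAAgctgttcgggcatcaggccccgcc
*Irgm2*, chr11:58214727-58214976, plus strand: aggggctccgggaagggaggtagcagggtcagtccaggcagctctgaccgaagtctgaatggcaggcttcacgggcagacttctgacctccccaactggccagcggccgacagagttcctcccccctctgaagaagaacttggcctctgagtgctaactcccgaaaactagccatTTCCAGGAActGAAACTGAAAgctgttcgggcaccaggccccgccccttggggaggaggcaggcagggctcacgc
Of 27025 promoters of this length, 3.04% held the first motif and 7.18% the second. *Ifit1* held the first motif at 2 places, 104 and 85 bases before the start, *Isg15* at 3 overlapping places from 78 to 66 bases before it, and neither held the second. *Igtp* and *Irgm2* each held both, at 34 and 45 bases before the start of *Igtp* and at 64 and 75 before that of *Irgm2*. Their promoters also share an unbroken run of 55 bases, which lies farther upstream than these motifs. A match is a description of these letters and does not show binding. Because the 4 genes were picked as known targets, matches in them were likely beforehand, and shares over the gene lists were not counted.

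All 53 interferon-stimulated genes of the list in the table could be tested, and 52 had a log2 fold change above 0, with a median of 0.59. Of these, 2 had an unadjusted p under 0.05 (0.770% of all genes on this side) and 7 had all NX libraries above all sham libraries (2.69% of all genes). *Ifit1*, which binds viral RNA lacking normal caps, was at 4.29, 3.16 and 3.02 CPM in sham JV101 and 8.86, 10.5 and 23.7 in NX JV101, with the groups apart (2.03, SE 0.86, edgeR unadjusted p = 0.0362). *Usp18*, which removes ISG15 from proteins and damps the receptor, was at 3.17, 1.85 and 2.22 CPM in sham JV101 and 3.85, 5.797 and 8.7 in NX JV101, also apart (1.34, SE 0.56). *Irf9*, the DNA-binding part of the type I complex, was at 13.4, 8.36 and 7.04 CPM in sham JV101 and 13.9, 17.1 and 28.7 in NX JV101 (1.05, SE 0.53), and *Ifit3* at 8.15, 3.25 and 2.99 CPM in sham JV101 and 8.45, 8.55 and 15.5 in NX JV101 (1.17, SE 0.64), both apart by small margins.

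*Irf7*, the regulator that amplifies type I interferon, was at 12.1, 5.96 and 8.06 CPM in sham JV101 and 12.6, 14.7 and 23.6 in NX JV101 (0.95, SE 0.57). *Isg15*, the ubiquitin-like modifier, was at 4.98, 1.58 and 1.05 CPM in sham JV101 and 3.44, 4.38 and 4.49 in NX JV101, so that sham JV101 replicate 1 exceeded every NX library (0.68, SE 0.61). *Apol9a* had 0.238, 0.707 and 4.44 CPM in NX JV101 and 0.219, 0.271 and 0.1497 in sham JV101, its value resting on NX JV101 replicate 3 (3.08, SE 1.46). The list's score, which averages log2 CPM over its genes after each gene is centred on the 6 libraries, was 0.38, −0.46 and −1.02 in sham JV101 against −0.13, 0.48 and 0.75 in NX JV101. The fibroblast scores in the same order were 0.93, −0.25 and −1.51 and −0.27, 1.00 and 0.10, with the same order of the 3 sham libraries, and the part of non-myocyte transcripts in the interferon values was not tested. Leaving out sham JV101 replicate 3 gave a list median of 0.31 (42 of 53 above 0), and leaving out sham JV101 replicate 1 gave 1.08. It was 0.12, with 37 above 0, when replicate 3 of both groups was left out.

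The interferon-gamma induced GTPases, some of which attack the vacuoles of intracellular microbes, rested on 1 library. All 19 were above 0 with a median of 0.98, and without NX JV101 replicate 3 the median was 0.14 with 13 above 0. *Igtp* was at 10.2, 5.15 and 14.02 CPM in sham JV101 and 15.1, 14.1 and 207 in NX JV101 (3.00, SE 1.43), *Irgm2* at 19.9, 8.18 and 16.7 CPM in sham JV101 and 21.9, 21.9 and 176 in NX JV101 (2.29, SE 1.16), and *Irgm1* at 14.6, 9.399 and 10.8 CPM in sham JV101 and 14.1, 14.04 and 81.1 in NX JV101 (1.65, SE 0.88). In each, NX JV101 replicates 1 and 2 lay near or within the sham range and replicate 3 far above it. *Iigp1* (39.1, 20.1 and 279 CPM in NX JV101; 2.25, SE 1.17) and the related *F830016B08Rik* (14.5, 6.43 and 373 CPM; 4.58, SE 2.09) had a like pattern. These GTPases form a family of close copies, so reads between members could be split.

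Single libraries of the saline groups were high in the same genes. *Igtp* was at 213, 9.18 and 5.91 CPM in sham saline and 11.2, 8.82 and 53.2 in NX saline, so that 1 sham saline library matched the high NX JV101 one. In the saline comparison the GTPases had a median of −0.73 with 0 of 19 above 0 (52.9% of all genes were above 0 there), and 6 of 19 had an interaction p under 0.05 before adjustment (1.78% of all genes). The interaction called 0 genes after adjustment (0%; smallest edgeR adjusted p = 1.00). For the interferon-stimulated genes the saline median was 0.04, with 28 of 53 above 0. Here too single libraries were high. *Ifit1* was at 17.7, 1.96 and 1.95 CPM in sham saline and 1.36, 3.996 and 9.48 in NX saline. *Usp18* was at 6.55, 2.02 and 1.70 CPM in sham saline, and *Irf9* at 26.3, 7.04 and 7.55. In all 3 genes sham saline replicate 1 lay above NX JV101 replicates 1 and 2.

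**Figure D3:**
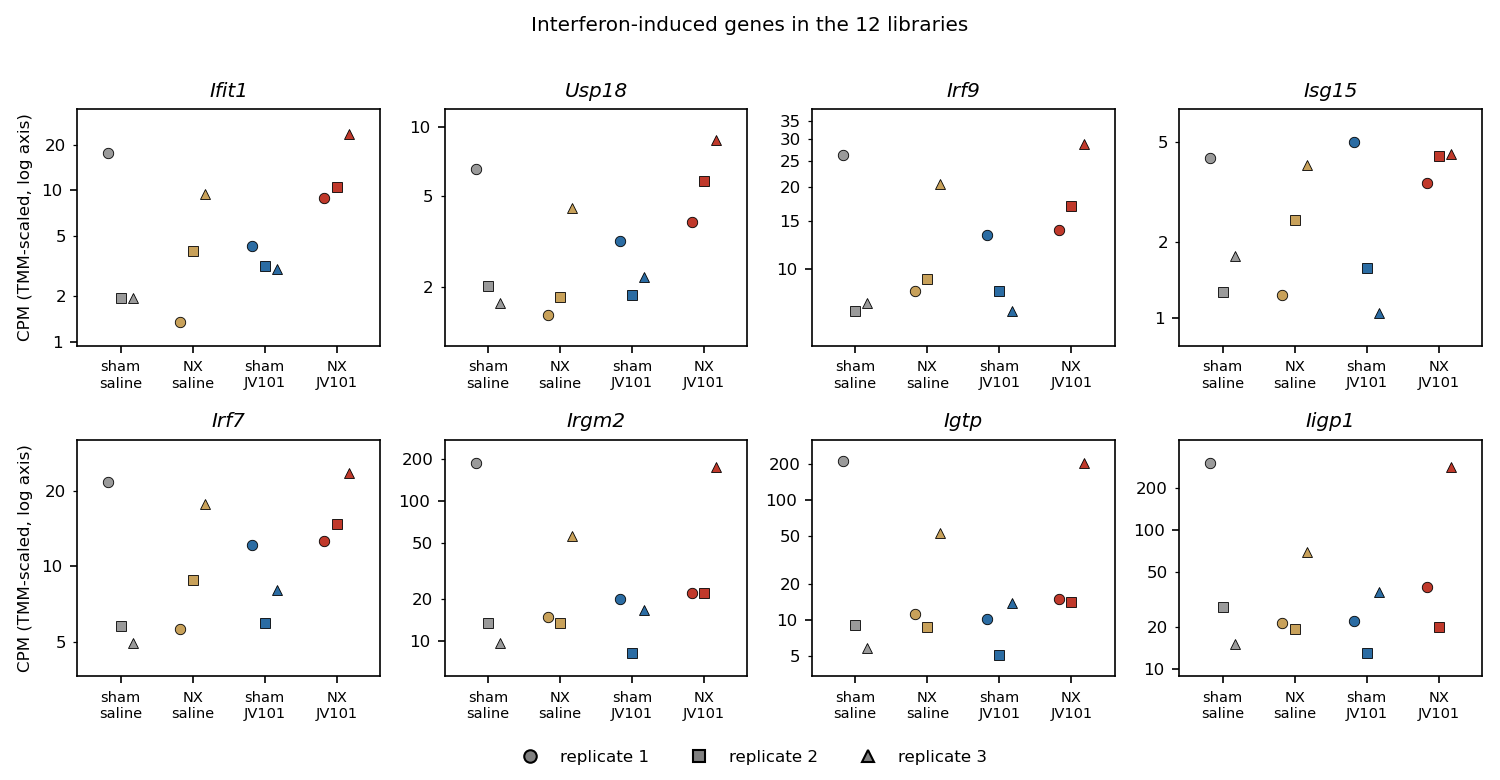
CPM (log axes) of 8 interferon-induced genes in all 12 libraries, 1 symbol per replicate in each of the 4 groups. *Ifit1*, *Usp18* and *Irf9* are apart between sham JV101 and NX JV101, but sham saline replicate 1 lies above NX JV101 replicates 1 and 2 in each. The GTPases *Irgm2*, *Igtp* and *Iigp1* are high in NX JV101 replicate 3, sham saline replicate 1 and, less so, NX saline replicate 3.

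Other steps of the pathway were closer to 0. The interferon receptors and their relays had a median of 0.19 (11 of 14 above 0) and the sensors of foreign nucleic acid, among them those that read cytosolic DNA, 0.07 (12 of 18), with 0 of either at an unadjusted p under 0.05. These turned to −0.02 and −0.12 without sham JV101 replicate 3. Genes of MHC class I antigen presentation had a median of 0.46, 20 of 22 above 0, and 0.15 without sham JV101 replicate 3. Without replicate 3 of both groups it turned to −0.08, with 8 of 22 above 0. Their class II counterparts, which mark antigen-presenting cells, had a median of 0.17, which turned to −0.22 without sham JV101 replicate 3.

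Neutrophil and B cell transcripts, which were scarce in all libraries, had log2 fold changes below 0. All 13 tested neutrophil genes (of 15 in the table) were below 0, with a median of −0.80, where 49.4% of all genes were. *S100a8*, an alarmin of neutrophils, was at 9.85, 3.07 and 0.809 CPM in sham JV101 and 0.715, 1.34 and 0.0249 in NX JV101 (−2.71, SE 1.01, edgeR unadjusted p = 0.0201). *Cxcr2*, their chemokine receptor, was at 1.42, 0.768 and 0.2695 CPM in sham JV101 and 0.0341, 0.0707 and 0 in NX JV101 (−4.39, SE 1.31), and *Mmp8*, their collagenase, at 0.957, 0.362 and 0 CPM in sham JV101 and 0.102, 0.0471 and 0.0249 in NX JV101 (−2.92, SE 1.35). The highest sham value of each was in replicate 1. The summed neutrophil level was 63.7, 24.1 and 18.6 CPM in sham JV101 and 18.9, 25.5 and 9.65 in NX JV101, overlapping, and without sham JV101 replicate 1 the median turned to 0.26. In saline mice the same genes had a median of 1.14, with 10 of 13 above 0, and 5 of 13 had an interaction p under 0.05 before adjustment (1.78% of all genes). For *S100a8* the interaction was −5.46 (SE 1.43).

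B cell genes were below 0 in 10 of 11 cases with a median of −1.14, between −1.78 and −0.41 without any 1 library, and 3 had an unadjusted p under 0.05 (1.30% of all genes on this side). Their summed level was 24.6, 21.3 and 5.57 CPM in sham JV101 and 11.8, 22.4 and 16.2 in NX JV101, overlapping, with sham JV101 replicate 3 below every NX library. With a filter of 5 CPM in 3 libraries 1 B cell gene was left, at 0.38. The lymphoid factor *Spib* was at 0.274, 0.859 and 0.1497 CPM in sham JV101 and 0.0681, 0.0471 and 0 in NX JV101 (−3.37, SE 0.92), with 4 counts in all in the NX libraries. The inhibitory receptor *Cd22* was at 0.602, 1.85 and 0.2695 CPM in sham JV101 and 0.102, 0.283 and 0.0249 in NX JV101 (−2.64, SE 1.08), highest in sham JV101 replicate 2. Erythroid and platelet genes had a median of −1.07 over 8 tested members, and their summed level was 169, 282 and 21.4 CPM in sham JV101 and 92.7, 107 and 49.6 in NX JV101. Among the sham libraries, replicates 1 and 2 had more of the blood, B cell and neutrophil transcripts than replicate 3, and how far blood left in the preparation set these values was not tested. T and NK cell genes were centred on 0 (median 0.01, 5 of 10 above 0).

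Adipocyte genes had the largest median of the 63 lists, 2.44, with 9 of 11 tested members above 0. The summed level of the list was 790.3, 380.2 and 145 CPM in sham JV101 and 413, 686 and 549 in NX JV101, overlapping, with sham JV101 replicate 1 the highest of the 6 libraries. The members named below reached at most 11.1 CPM, so most of this sum came from other members. Among those is *Fabp4*, also in the endothelial list, whose sums ran in the same order within each group. The sum is therefore no measure of fat cells alone. The median depended on the processing. It was 0.28 over the 5 genes left by the filter of 5 CPM in 3 libraries, 0.34 when only the 6 libraries were fitted, 0.52 with limma on log2(FPKM + 1), 1.22 with a replicate block, and 0.75 without replicate 3 of both groups. It was 1.34 without NX JV101 replicate 3, the lowest of the 6 medians that each left out 1 library, and 4.29 without sham JV101 replicate 1. Of the 11, 5 had an unadjusted p under 0.05 (0.770% of all genes on this side), and the same number had all NX libraries above all sham libraries (2.69% of all genes). The members named below had few counts in sham JV101 (*Adipoq* 1, *Plin1* 3 and *Cidec* 7 in all) and passed the filter through other libraries. Genes scarce in 1 group easily give groups that do not overlap, so these shares are no support for a change. *Car3*, a carbonic anhydrase abundant in fat, was at 0.219, 0.136 and 0.2396 CPM in sham JV101 and 1.06, 2.97 and 11.1 in NX JV101 (4.62, SE 1.44, edgeR unadjusted p = 0.00791). *Cfd*, adipsin, was at 0.246, 0.271 and 0.0299 CPM in sham JV101 and 0.886, 2.47 and 6.08 in NX JV101 (4.13, SE 1.29). The lipid droplet protein *Cidec* was at 0.109, 0.136 and 0 CPM in sham JV101 and 0.136, 0.707 and 2.39 in NX JV101 (3.74, SE 1.65).

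The hormone gene *Adipoq* and the droplet coat *Plin1* were counted 1 and 3 times over the sham libraries, against 85 and 101 times in NX JV101. Their ratios were 69.9 (95% exact binomial interval 12.2 to 2794, counting error only) and 27.7 (9.21 to 137). *Adipoq* stood at 0, 0 and 0.0299 CPM in sham JV101 and 0.136, 0.283 and 1.72 in NX JV101, under 2 CPM in every library. The highest value of each of these 5 genes was in NX JV101 replicate 3. In saline mice *Car3* was at 0.128, 0.693 and 3.56 CPM in sham and 0.444, 14.7 and 5.31 in NX, with overlap, and the list's median was 1.62. The number of fat cells carried into a preparation was not measured.

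**Figure D4:**
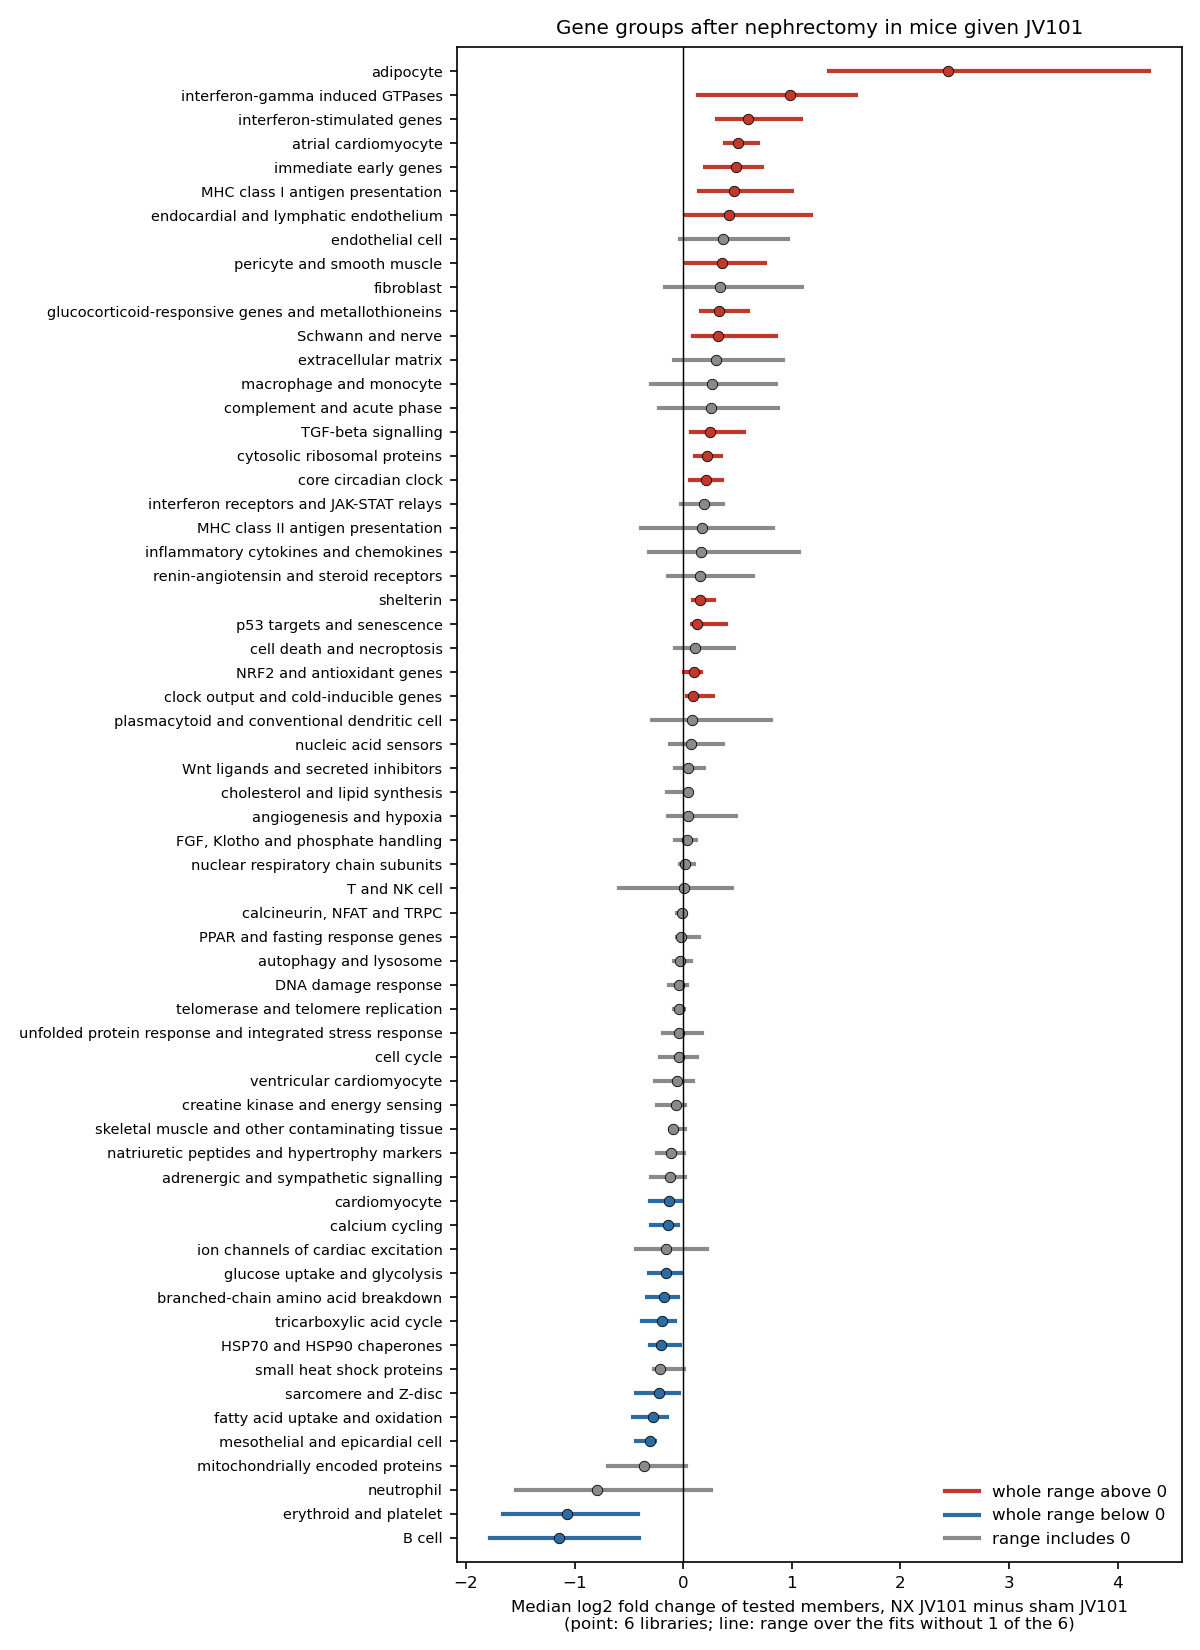
Median log2 fold change of the tested members of 62 gene lists (points) with the range over the 6 fits that each left out 1 library (lines; the airway list, which spans −4.30 to 4.33, is not drawn). Adipocyte, interferon-stimulated, interferon-gamma GTPase and atrial lists lie to the right and B cell, blood and fatty acid oxidation lists to the left, with lines that do not reach 0. Grey lines include 0, that of the interferon receptors and relays among them.

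Immediate early genes, which cells switch on within minutes of a stimulus and often during tissue dissociation, were all above 0, 27 of 27 tested, with a median of 0.49 and 0.20 without sham JV101 replicate 3. Without replicate 3 of both groups the median was 0.06, with 16 of 28 tested above 0. *Btg2*, an antiproliferative member, was at 111, 109.5 and 84.3 CPM in sham JV101 and 188, 134 and 209.8 in NX JV101, with the groups apart (0.80, SE 0.31, edgeR unadjusted p = 0.0252). *Nr4a2*, an orphan nuclear receptor, was at 1.07, 1.31 and 0.898 CPM in sham JV101 and 1.63, 1.37 and 4.41 in NX JV101 (1.19, SE 0.66), and *Ccn2*, connective tissue growth factor, at 47.9, 69.7 and 88.9 CPM in sham JV101 and 66.4, 149 and 115 in NX JV101 (0.68, SE 0.36). The list's scores were 0.18, −0.03 and −0.96 in sham JV101 against −0.21, 0.40 and 0.62 in NX JV101, so sham JV101 replicate 1 lay within the NX range. Sham JV101 replicate 3 was the lowest of the 6 in this score, as it was in the fibroblast, endothelial and macrophage scores, whose part in the result was not tested.

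Among glucocorticoid-responsive genes, 17 of 22 were above 0 with a median of 0.33. *Tsc22d3*, a glucocorticoid-induced leucine zipper, was at 72.6, 48.7 and 42.5 CPM in sham JV101 and 59.3, 125 and 123 in NX JV101 (0.91, SE 0.35), and *Ddit4*, an inhibitor of mTOR, at 28.4, 25.3 and 27.5 CPM in sham JV101 and 19.2, 68.7 and 82.7 in NX JV101 (1.07, SE 0.45). In both, NX JV101 replicates 2 and 3 were high and replicate 1 was within or below the sham range. *Klf9* was at 92.3, 74.6 and 94.1 CPM in sham JV101 and 96.5, 117 and 125 in NX JV101, apart by a small margin (0.37, SE 0.21). *Irs2*, an adaptor of the insulin receptor, was at 13.2, 13.8 and 13.03 CPM in sham JV101 and 23.8, 12.6 and 55.7 in NX JV101 and rested on NX JV101 replicate 3 (1.20, SE 0.49; 0.44 without it).

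The inducible heat shock proteins *Hspa1a* and *Hspa1b*, a near-identical pair whose reads could be split, departed from their list. *Hspa1a* was at 7.96, 30.6 and 7.07 CPM in sham JV101 and 54.2, 84.1 and 57.7 in NX JV101, without overlap (2.11, SE 0.86, edgeR unadjusted p = 0.0305), and *Hspa1b* at 5.44, 29.5 and 2.67 CPM in sham JV101 and 44.8, 82.5 and 51 in NX JV101 (2.26, SE 1.10). The HSP70 and HSP90 chaperone list as a whole lay lower, with 24 of 29 tested members below 0 and a median of −0.20 (−0.47 in saline mice, where 0 of 29 were above 0). In saline mice *Hspa1a* was at 10.2, 98.5 and 112 CPM in sham and 4.28, 14.9 and 27.9 in NX, which gave an interaction of 4.34 (SE 1.22) that did not pass after adjustment. Within sham saline alone the values thus ran from 10.2 to 112 CPM. *Cryab*, the small heat shock protein that guards desmin, was at 834, 1124 and 983 CPM in sham JV101 and 818, 796 and 818 in NX JV101, with all NX values below all sham values (−0.27, SE 0.18).

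Clock genes varied widely between libraries within each group. The clock runs on BMAL1 (*Arntl*) with CLOCK, whose targets PER, CRY and REV-ERB (*Nr1d1*) close the loop, and *Dbp* is a direct output that peaks opposite to *Arntl*. *Arntl* was at 5.47, 8.59 and 1.08 CPM in sham JV101 and 0.9196, 10.2 and 0.972 in NX JV101, and *Dbp* at 27.9, 8.68 and 57.4 CPM in sham JV101 and 79.1, 6.999 and 60.7 in NX JV101. Sham JV101 replicate 3 and NX JV101 replicates 1 and 3 had little *Arntl* and much *Dbp*, sham JV101 replicate 2 and NX JV101 replicate 2 the reverse, and sham JV101 replicate 1 lay between. The log2 fold changes were −0.30 (SE 0.97) for *Arntl* and 0.64 (SE 0.85) for *Dbp*. *Nr1d1* was at 34.1, 21.7 and 21.6 CPM in sham JV101 and 34.7, 16.9 and 39.04 in NX JV101 (0.22, SE 0.32), *Per2* at 18.3, 24.9 and 11.2 CPM in sham JV101 and 27.96, 17.9 and 31.7 in NX JV101 (0.52, SE 0.48) and *Bhlhe40*, a repressor of the loop, at 51.1, 38.1 and 31.2 CPM in sham JV101 and 59.98, 47.4 and 54.8 in NX JV101 (0.43, SE 0.18, edgeR unadjusted p = 0.0372).

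Of 18 core clock genes 14 were above 0, with a median of 0.21. The labels give no hour of sacrifice. *Cirbp*, a cold-inducible relative of *Rbm3*, was at 12.3, 14.6 and 28.8 CPM in sham JV101 and 34.7, 13.6 and 27.97 in NX JV101, highest in the 3 libraries with much *Dbp* (0.45, SE 0.39). *Rbm3* did not have that pattern in sham JV101, where it was at 22.1 to 24.5 CPM in all 3 libraries. In NX JV101 it was highest in the pair of libraries with much *Dbp* and lowest in replicate 2, and the part of clock phase in its difference was not tested.

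**Figure D5:**
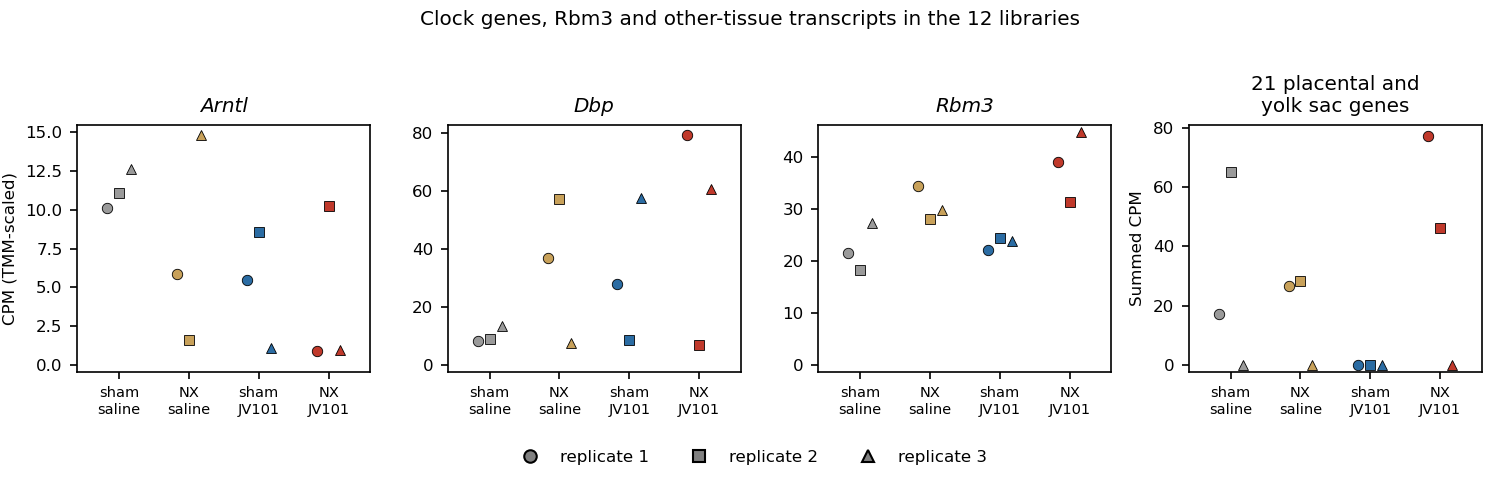
CPM of the clock genes *Arntl* and *Dbp*, of *Rbm3*, and summed CPM of 21 placental and yolk sac genes in the 12 libraries (1 symbol per replicate). Libraries with little *Arntl* have much *Dbp*, *Rbm3* is higher in NX under both injections, and the 21 genes are at 0 in 6 libraries, all 3 of sham JV101 among them.

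Genes of heart muscle structure and load were centred slightly below 0. Of 30 sarcomere and Z-disc genes 24 were below 0 (median −0.23; −0.04 without sham JV101 replicate 3), and none had an unadjusted p under 0.05. The slight lean depends on the scale. On log2(FPKM + 1) with limma the median of all genes was 0.11, with 79.0% of genes above 0 where 50.6% were in CPM with TMM factors, and with a pseudocount of 0.1 it was 0.18. On that scale the sarcomere median was −0.02, which is −0.13 relative to the median of all genes. *Myh6*, the adult alpha myosin heavy chain, was at 7977, 17948 and 22305 CPM in sham JV101 and 15937, 7252 and 14462 in NX JV101 (−0.36, SE 0.39), titin, *Ttn*, at 1104, 3019 and 4243 CPM in sham JV101 and 2081, 757 and 1624 in NX JV101 (−0.91, SE 0.47), and cardiac actin, *Actc1*, at 5302, 8941 and 7934 CPM in sham JV101 and 6196, 5553 and 5542 in NX JV101 (−0.36, SE 0.27). *Myh6* and *Ttn* were lowest in sham JV101 replicate 1 and NX JV101 replicate 2, the libraries rich in non-myocyte transcripts. *Mb*, *Myl2*, *Tpm1* and *Tnnt2*, further abundant muscle genes, overlapped between groups too, *Mb* for example at 6285, 7774 and 8115 CPM in sham JV101 and 7601, 6712 and 7070 in NX JV101.

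The markers of pathological growth gave no common direction. *Nppa*, atrial natriuretic peptide, was at 263, 40.99 and 788 CPM in sham JV101 and 632, 946 and 627 in NX JV101 (1.01, SE 1.07) and *Nppb*, brain natriuretic peptide, at 109, 206 and 76.8 CPM in sham JV101 and 83.4, 179 and 132 in NX JV101 (0.01, SE 0.51). *Myh7*, the fetal beta myosin heavy chain, was at 40.2, 72.8 and 134 CPM in sham JV101 and 58.1, 45.3 and 86.6 in NX JV101 (−0.38, SE 0.44). Skeletal actin, *Acta1*, was at 263, 255 and 291 CPM in sham JV101 and 195, 242 and 238 in NX JV101, below sham in every NX library (−0.26, SE 0.41), whereas in saline mice it was at 129.5, 74.99 and 123 CPM in sham and 298, 299 and 71.7 in NX. *Xirp2*, a protein of the intercalated disc, was at 288, 551 and 419 CPM in sham JV101 and 263, 254 and 289 in NX JV101 (−0.64, SE 0.24), and *Myh7b* at 23.5, 72.3 and 98.1 CPM in sham JV101 and 39.6, 11.7 and 27.3 in NX JV101 (−1.30, SE 0.52). Over 30 tested members of this list 13 were above 0, with a median of −0.11, and of 0.09 on log2(FPKM + 1), where all genes had 0.11.

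Calcium cycling genes were below 0 in 21 of 29 cases with a median of −0.14, and of 0.06 on log2(FPKM + 1). *Atp2a2*, the SERCA pump that refills the reticulum, was at 5184, 8886 and 11777 CPM in sham JV101 and 8077, 5425 and 7876 in NX JV101 (−0.27, SE 0.29), and the release channel *Ryr2* at 539, 1303 and 1339 CPM in sham JV101 and 881, 489 and 826 in NX JV101 (−0.53, SE 0.32). The inward rectifier channel gene *Kcnj2* was at 15.6, 23.2 and 44.2 CPM in sham JV101 and 19.8, 7.8 and 20.97 in NX JV101 (−0.78, SE 0.42). Ion channel genes as a list had a median of −0.16, which turned to 0.22 without sham JV101 replicate 3 and to 0.07 on log2(FPKM + 1).

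Atrial transcripts were at a like level in the 3 NX libraries and spread widely in sham. The 19 atrial genes summed to 1285, 1020 and 3094 CPM in sham JV101 and 2328, 2883 and 2142 in NX JV101, with 14 of 19 above 0 and a median of 0.51. The median stayed between 0.39 and 0.69 without any 1 library. *Sln*, sarcolipin, was at 18.5, 0.723 and 43.8 CPM in sham JV101 and 38.1, 69.5 and 32.2 in NX JV101 (1.14, SE 1.12), and *Myl7*, the atrial light chain, at 49.7, 3.93 and 145 CPM in sham JV101 and 116, 229 and 107 in NX JV101 (1.18, SE 1.11), both lowest in sham JV101 replicate 2. *Gja5*, the connexin of atria and conduction fibres, was at 3.53, 2.85 and 3.29 CPM in sham JV101 and 5.52, 7.38 and 6.21 in NX JV101, without overlap (0.98, SE 0.36, edgeR unadjusted p = 0.0201), and *Bmp10* at 0, 0.316 and 1.68 CPM in sham JV101 and 6.097, 0.283 and 6.71 in NX JV101 (2.69, SE 1.44). In saline mice the list's median was −0.62, and the interaction for *Gja5* was 1.68 (SE 0.51). How much atrial tissue each preparation held was not measured.

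Fuel genes were below 0 in nearly all cases by small amounts in CPM with TMM factors. Of 36 genes of fatty acid uptake and oxidation, the main fuel path of the adult heart, 33 were below 0 with a median of −0.28 and −0.46 to −0.14 without any 1 library, and 1 had an unadjusted p under 0.05 (1.30% of all genes). That gene was *Cpt2*, the inner carnitine transferase, at 108, 157 and 159 CPM in sham JV101 and 119.5, 82.3 and 109 in NX JV101 (−0.45, SE 0.19). *Lpl*, lipoprotein lipase, was at 2142, 3854 and 5214 CPM in sham JV101 and 3416, 2420 and 2977 in NX JV101 (−0.35, SE 0.29). All 17 genes of the tricarboxylic acid cycle were below 0 (median −0.19), as were 21 of 24 of branched-chain amino acid breakdown (−0.18) and 28 of 31 of glucose uptake and glycolysis (−0.16), among them *Pfkl*, phosphofructokinase of the liver type, at 74.04, 102 and 98.7 CPM in sham JV101 and 74.6, 71.4 and 62.9 in NX JV101 (−0.40, SE 0.15). In saline mice the medians of these 4 lists, in the same order, were −0.19, −0.17, −0.23 and −0.11. Without sham JV101 replicate 3 the medians under JV101 were −0.15, −0.08, −0.05 and −0.02, with 9, 3, 9 and 14 members above 0. On log2(FPKM + 1) the medians were −0.07 for fatty acid oxidation and, above 0, 0.0125, 0.0241 and 0.0389 for the others. Relative to the median of all genes on that scale they were −0.17, −0.10, −0.08 and −0.07.

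The scores of fatty acid oxidation were −0.28, 0.27 and 0.32 in sham JV101 and 0.06, −0.36 and −0.02 in NX JV101, with the lowest values in the 2 libraries of highest fibroblast score, and the part of myocyte content in these lists was not tested. *Pdk4*, the kinase that restrains pyruvate oxidation, was at 213, 233 and 164 CPM in sham JV101 and 314, 166 and 292 in NX JV101 (0.34, SE 0.64). Nuclear genes of the respiratory chain were centred on 0 (76 genes, median 0.01, 41 above 0). The 13 mitochondrially encoded genes were all below 0 with a median of −0.36, which turned to 0.03 without sham JV101 replicate 2, the library with the largest mitochondrial share.

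Cytosolic ribosomal protein genes were above 0 in 75 of 76 cases by a small median of 0.22 (0.11 to 0.34 without any 1 library). All NX libraries lay above all sham libraries for 8 of 76 (2.69% of all genes), and 0 had an unadjusted p under 0.05. *Rpl36* was at 111, 110.5 and 94.97 CPM in sham JV101 and 123, 133 and 126 in NX JV101 (0.27, SE 0.14) and *Rpl3* at 141, 81.97 and 75.6 CPM in sham JV101 and 117, 159.8 and 138 in NX JV101 (0.47, SE 0.23). Ribosomal protein genes have many processed copies, so their counts are uncertain. In saline mice 72 of 76 were above 0, with a median of 0.09.

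Matrix and stromal genes leaned up in a way that rested on single libraries. Extracellular matrix genes were above 0 in 42 of 46 cases with a median of 0.30, but leaving out sham JV101 replicate 3 gave −0.08, NX JV101 replicate 2 −0.09 and sham JV101 replicate 1 0.91. The fibrillar collagens *Col1a1* (83.5, 30.2 and 14.97 CPM in sham JV101 and 25.4, 77.2 and 41.3 in NX JV101; 0.16, SE 0.57) and *Col3a1* (152, 60.6 and 33.8 CPM in sham JV101 and 49.8, 156 and 73.2 in NX JV101; 0.18, SE 0.52) were highest in sham JV101 replicate 1 and NX JV101 replicate 2 alike. Fibroblast, endothelial and macrophage markers had medians of 0.34, 0.36 and 0.27, which became −0.09, −0.03 and −0.17 without sham JV101 replicate 3. Without NX JV101 replicate 2 they were −0.16, 0.08 and −0.30. *Tgfb2*, a ligand of the fibrosis pathway, was at 5.14, 4.97 and 3.35 CPM in sham JV101 and 6.78, 5.56 and 5.98 in NX JV101, with the groups apart (0.44, SE 0.23).

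Mesothelial and epicardial markers were below 0 in 12 of 13 cases with a median of −0.30, and −0.44 to −0.26 without any 1 library. *Msln*, mesothelin, was at 7.14, 9.94 and 8.12 CPM in sham JV101 and 7.19, 6.74 and 6.51 in NX JV101 (−0.30, SE 0.25), *Upk3b*, uroplakin 3b, at 17.01, 20.3 and 14.6 CPM in sham JV101 and 14.2, 13.7 and 11.7 in NX JV101, lower in all NX libraries (−0.39, SE 0.25), and the mucin *Muc16* at 3.61, 6.87 and 4.16 CPM in sham JV101 and 4.02, 2.498 and 2.67 in NX JV101 (−0.67, SE 0.32). The simple keratin *Krt19* was at 3.97, 3.89 and 3.38 CPM in sham JV101 and 2.62, 3.63 and 1.72 in NX JV101 (−0.49, SE 0.33). In saline mice 12 of 13 of these markers were above 0, with a median of 0.42. Their summed level here was 60.7, 70.8 and 49.4 CPM in sham JV101 and 48.6, 55.1 and 47.6 in NX JV101, overlapping.

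*Vegfa*, the growth factor of capillaries, was at 122, 292 and 230.2 CPM in sham JV101 and 148, 108 and 131 in NX JV101 (−0.73, SE 0.28, edgeR unadjusted p = 0.02197), and the oxygen sensor *Egln3* at 76.2, 132 and 89.3 CPM in sham JV101 and 54.5, 89.01 and 39.3 in NX JV101 (−0.70, SE 0.31). Both were highest in sham JV101 replicate 2, and the angiogenesis and hypoxia list as a whole had a median of 0.04. *Vegfa* lay in the same direction in saline mice (−0.63, SE 0.28), from libraries that this comparison does not share. *Mcl1*, which restrains cell death, was at 156, 155 and 128 CPM in sham JV101 and 167, 179.9 and 199.7 in NX JV101, with the groups apart (0.32, SE 0.14).

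Telomere and damage genes were near 0. Of the 7 shelterin genes 6 were above 0 with a median of 0.15, and 0 had an unadjusted p under 0.05. *Terf1*, which coats the double-stranded repeats, was at 4.27, 3.03 and 1.17 CPM in sham JV101 and 2.21, 4.36 and 3.39 in NX JV101 (0.24, SE 0.45). Telomerase and telomere replication genes had a median of −0.04 (6 of 15 tested above 0, of 17 in the table). DNA damage response genes had a median of −0.03 over 31 members, among which *Fanca*, of the Fanconi anaemia core complex, was at 1.81, 0.813 and 1.53 CPM in sham JV101 and 0.749, 0.895 and 0.399 in NX JV101 (−1.03, SE 0.43, edgeR unadjusted p = 0.0348). The p53 target and cell cycle inhibitor *Cdkn1a* was at 46.2, 46.7 and 8.27 CPM in sham JV101 and 18.2, 96.9 and 56.8 in NX JV101 (0.77, SE 0.68), and p53 and senescence genes had a median of 0.13, with 31 of 42 above 0. Cell cycle genes had a median of −0.04 here and 0.43 in saline mice.

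Some libraries held transcripts of tissues foreign to the heart. A search made after the values were seen, for genes with 0 counts in all 3 libraries of 1 group and a mean of at least 0.5 CPM in the other, returned 21 genes at 0 in sham JV101 and 0 genes at 0 in NX JV101. They include *Afp*, made by yolk sac and fetal liver, *Apob*, and many placental genes of the prolactin, pregnancy-specific glycoprotein, cathepsin and Ceacam families, whose members are close copies. *Afp* was at 19.2, 2.85 and 0 CPM in NX JV101, *Tpbpa*, a trophoblast gene, at 8.75, 6.72 and 0 and placental lactogen, *Prl3b1*, at 7.08, 5.82 and 0. Against a floor of 3 counts over the sham libraries together they were at least 188-fold, 149-fold and 125-fold higher, and *Apob* at least 36.2-fold, but NX JV101 replicate 3 had 0 counts of all 4.

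The 21 genes summed to 77.2 and 46.2 CPM in NX JV101 replicates 1 and 2. At least 20 of the 21 were also counted in sham saline replicates 1 and 2 (17.3 and 65.2 CPM) and NX saline replicates 1 and 2 (26.6 and 28.3), and all 21 had 0 counts in the other 6 libraries. Replicate 3 of every group was among those without counts. *Xist*, the transcript of the inactive X of females, was at 0 to 0.102 CPM in the 6 JV101 libraries, and the Y-linked *Ddx3y* at 43.2 to 63.1. Airway epithelial genes were likewise a matter of single libraries, with summed levels of 1.53, 4.16 and 93.9 CPM in sham JV101 and 149, 7.07 and 0.274 in NX JV101. *Scgb1a1*, the club cell secretoglobin, was at 0.0274, 0.181 and 19.98 CPM in sham JV101 and 33.3, 4.1 and 0.0249 in NX JV101 (0.87, SE 2.18). Where these transcripts came from was not tested.

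Against the saline comparison, which uses the other 6 libraries, log2 fold changes had the same sign for 63.4% of genes, with a Pearson correlation of 0.082 across the 14412 genes, which are not independent of each other. The interaction of surgery and injection had 256 genes at an unadjusted edgeR p under 0.05. *Rbm3*, *Vegfa*, the fuel lists, ribosomal proteins, stromal markers and adipocyte genes had the same sign in both comparisons in CPM with TMM factors. Interferon-gamma GTPases, neutrophil, atrial and mesothelial genes and *Npy1r* had opposite signs, with no difference passing after adjustment. So did *Hspa1a*, *Hspa1b*, *Ccn2* (−0.91 in saline mice), *Irs2* (−1.19) and *Ddit4* (−0.74). MHC class I, MHC class II and B cell genes also had medians of opposite sign, at −0.16, −0.30 and 0.35 in saline mice. Of these lists 1 of 22, 0 of 10 and 8 of 11 genes were above 0 there. In saline mice the immediate early list had a median of 0.05, with 16 of 27 above 0. The glucocorticoid-responsive list had 0.09 there, with 14 of 22 above 0.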

How the data were processed

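RNA-seq libraries of isolated mouse cardiomyocytes were compared, 3 NX JV101 against 3 sham JV101. Per the submitters' processing notes, fastp, HISAT2 and HTSeq served to make the tables on GRCm39. Tool versions, the annotation and strandedness: not given in the sources used here. Gene counts and FPKM of 12 libraries, in columns the labels name, were deposited by the authors. Counts of 22794 genes were used for the tests, FPKM only in alternatives.

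Genes were kept by edgeR's filterByExpr (minimum count 10, minimum total 15), scaled with TMM and fitted with edgeR's quasi-likelihood model over 12 libraries and 4 groups (8 residual degrees of freedom), with 2-sided tests and Benjamini-Hochberg adjustment over 14412 genes (threshold 0.05). SEs were obtained as |log2 fold change| / √F. Computation was in R 4.3.3 with DESeq2 1.42.0, limma 3.58.1 and edgeR 4.0.16, and the scripts were tested on simulated counts. No deposited library pair was identical.

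The comparison, the 63 lists (45 pathways, 18 cell types; 62 of 1497 genes absent from the table) and the genes of interest were chosen with earlier results of these data known. Genes were named by rule: the 12 smallest p in each direction at 1 CPM or more, up to 4 of each list by p, fixed genes of interest, and the 8 of highest mean CPM outside the mitochondrial genome. Others (*Ifit3*, *Irgm1*, *Cirbp*, *Myl7*, *Tpbpa*, *Prl3b1*, *Xist*, *Ddx3y*) were picked after their values were seen. Some genes that the rule names are not reported here.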

Additional observations from a re-analysis of the deposited data

How the results depend on the processing

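No gene was called, for nephrectomy or for the interaction, under any alternative run for it: 0 with DESeq2, RLE or upper-quartile factors, no filter, 5 CPM in 3 libraries, a replicate block, no mitochondrially encoded genes, limma on log2 FPKM (pseudocount 1 or 0.1), an adjusted p of 0.01, and 6 or 12 fits without 1 library (0 to 0). For nephrectomy alone it was also 0 with only the 6 libraries and in the alternatives added later. With the replicate number as a block 219 genes had an unadjusted p under 0.05. Deviations from the group means of same-numbered libraries correlated at −0.50, 0.08 and 0.09, and those of differently numbered libraries at −0.54 to 0.55. With 3 libraries a group, these values cannot show whether libraries of equal number were handled together. The 299 genes at an unadjusted p under 0.05 became 466 without a filter, 168 with the 5 CPM filter, 199 with limma on FPKM (pseudocount 1), 153 with only the 6 libraries, and 104 (without NX JV101 replicate 3) to 1972 (without sham JV101 replicate 1) without 1 library. Voom with sample weights gave 2586 and leaving out replicate 3 of both groups 127, a pair of alternatives chosen after seeing the data.

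Of 97 genes checked, 88 kept their sign throughout. *Nppb* (0.01) turned to −0.00691 with DESeq2, −0.00630 with RLE factors, −0.0118 with upper-quartile factors, −0.00779 without mitochondrially encoded genes, −0.52 with voom and −0.27 without replicate 3 of both groups, and spanned −0.28 to 0.50 without 1 library. *Myh7* was at 0.0405 with voom (−0.70 to 0.17 without 1 library), and *Scgb1a1* at −0.50 (−1.71 to 7.10). Without replicate 3 of both groups *Nr1d1* was at −0.11 (−0.00425 to 0.51), *Terf1* at −0.15 (−0.14 to 0.68), *Col1a1* at −0.15 (−0.36 to 1.09) and *Col3a1* at −0.0498 (−0.41 to 0.98). *Atp2a2* spanned −0.53 to 0.0204 and *Arntl* −2.40 to 0.31. The cause was not tested. Of the 63 lists 28 kept the sign of their median in all 6 fits without 1 library. On log2(FPKM + 1) the median of all genes was 0.11 and 79.0% of genes were above 0. *Adipoq*, *Spib*, *Cxcr2* and *Mmp8* rest on few counts, which limits their precision.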
